A study of Mus musculus with 6 samples.

Results

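Endothelial identity genes are the genes by which the cells lining blood and lymph vessels are recognised. The 34 genes described here were chosen by name, and all 34 were found by symbol among the 44788 rows of the count table. The table gives gene expression in scrapings of the endometrium, which lines the uterus. The mice had adenomyosis, the growth of endometrial tissue into the muscle wall of the organ. All animals were female ICR mice, an outbred strain, born to 5 dams and fed tamoxifen at 2.7 µmol/kg on days 2 to 5 of life to induce the condition. After 75 days 8 of them received the GnRH agonist triptorelin (Decapeptyl, spelled Decapetyl in the labels) at 1.5 µg per 100 g of body weight per day by injection into the abdomen, from day 3 to day 9 of estrus. The other 8 received the solvent. Mating followed 4 weeks later, and tissue was taken on the evening of day 4 of pregnancy. Each group is represented by 3 libraries, numbered here in the order of their records. Equal numbers therefore do not pair libraries between the groups. Since it is not recorded which mouse or mice a library came from, the spread behind each p-value is that between libraries and may be technical. No group without tamoxifen was analysed here.

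Endothelial cells hold together through cadherin, claudin and immunoglobulin-type adhesion molecules, and they sense flow, growth factors and lipid mediators through their own set of receptors. Transcription factors of the ETS and SOX families keep this gene set active in them. In the mouse uterus the capillary bed of the endometrium grows and becomes leaky around the time of implantation, and the apelin receptor marks growing vessels, while Prox1 and Lyve1 mark lymphatic vessels.

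The comparison asked how the 34 genes stood in agonist endometrium against endometrium without agonist. Of the 34, 29 lay higher with the agonist (85.3%), where 52.2% of all 16581 tested genes did, and their median log2 fold change was 0.58 against 0.02 over all tested genes. With library totals alone as the scale, 30 of the 34 and 68.7% of all tested genes lay higher. The apelin receptor Aplnr was 3.05-fold higher in mean level, the adhesion genes Cdh5 and Esam 1.79-fold and 1.70-fold, and the sialomucin Emcn 1.79-fold. With edgeR's quasi-likelihood test and Benjamini-Hochberg adjustment over all tested genes, no gene of the 34 reached an adjusted p of 0.05 (0 higher and 0 lower, smallest adjusted p = 0.410), and 0% of all tested genes did in either direction. DESeq2 likewise called 0 of the 34, where it called 0.870% of the genes it gave an adjusted p as higher and 1.56% as lower.

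All 34 passed the filter on low counts. At an unadjusted p under 0.05, 8 of the 34 (23.5%) lay higher and 0 lower, where 4.17% of all tested genes lay higher and 5.09% lower. For 8 of the 34 all 3 agonist libraries lay above all 3 others, and for 0 below, where 6.94% of all tested genes were separated upward and 7.61% downward. These 8 were Aplnr, Emcn, Cdh5, Esam, Clec14a, Myct1, Erg and Tal1. The genes with an unadjusted p under 0.05 were the same but for Mmrn2 in place of Tal1. The members were chosen with earlier results of these data known, so these shares describe the list. They rest in part on agonist library 2, since without it 26 of 34 lay higher, the median log2 fold change was 0.42, and 1 gene of the 34, Sox7, had an unadjusted p under 0.05, where 8.21% of all tested genes did in either direction. Without no-agonist library 3 this number was 2 of 34 (Cldn5 and Emcn), where 7.04% of all tested genes had such a p. Leaving out either of these libraries thus left the list at a lower share than all tested genes, counted in either direction. Without agonist library 3 the number was 13 of 34, where 6.24% of all tested genes had such a p, and with all libraries that share was 9.26%.

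Some of the libraries stood apart. Library totals ran from 11720958 to 14104266 counts. The 18S ribosomal RNA gene took 1.94% of counts in agonist library 1 and 3.31% in no-agonist library 2, against 0.254 to 0.369% in the other libraries. Without both of these libraries 26 of the 34 genes lay higher, with a median log2 fold change of 0.40, a comparison added after the data were seen. The single-library counts of the 34 genes ran from 1 to 4180, and 3 counts, the limit that a count of 0 allows, correspond to 0.213 to 0.256 CPM (the usual counts-per-million scale, here with TMM factors). In bulk tissue, more endothelial cells and more RNA of these genes per cell cannot be told apart, nor can fewer cells and less RNA per cell.

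**Figure D1:**
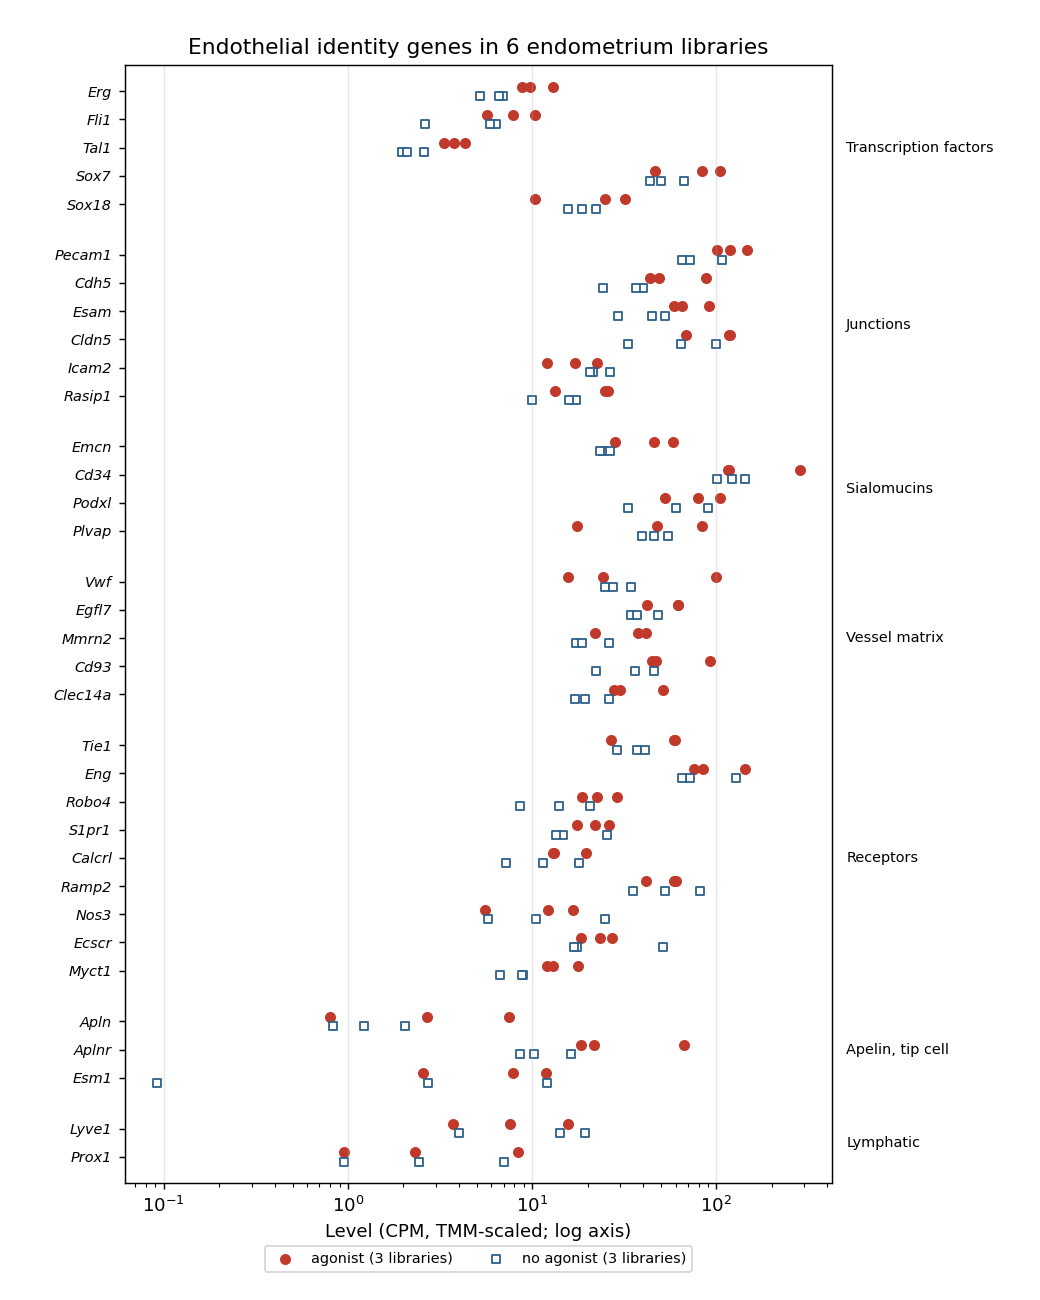
Level of each of the 34 endothelial identity genes in CPM on a log axis, with 1 point per library. Filled circles are the 3 agonist libraries, drawn above the open squares of the 3 libraries without agonist. Most genes overlap between the groups, and Aplnr, Emcn and Esam are among the 8 that do not.

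ETS-family factors, of which Erg and Fli1 are members of the list, bind DNA around the letters GGAA. Promoter sequences are shown for 4 of the 8 separated genes, chosen because a promoter of theirs held CAGGAA, which contains these letters. RefSeq promoters (GRCm38.p6, 250 bases before to 50 bases after the transcript start) matched 16 of the 34 genes by symbol, with 22 promoters in all. Of the other separated genes, Aplnr, Cdh5 and Esam had no promoter listed, and those of Tal1 held no match. Each is printed 5′ to 3′ on the strand of its gene, and capitals mark CAGGAA, which reads TTCCTG where it lies on the opposite strand. The sequences are from chr3:137340828-137341127 (plus strand) for Emcn, chr12:58269209-58269508 (minus strand) for Clec14a, chr10:5593478-5593777 (plus strand) for Myct1 and chr16:95459299-95459598 (minus strand) for Erg, the last being the promoter with a match among the 3 listed for that gene.
Emcn: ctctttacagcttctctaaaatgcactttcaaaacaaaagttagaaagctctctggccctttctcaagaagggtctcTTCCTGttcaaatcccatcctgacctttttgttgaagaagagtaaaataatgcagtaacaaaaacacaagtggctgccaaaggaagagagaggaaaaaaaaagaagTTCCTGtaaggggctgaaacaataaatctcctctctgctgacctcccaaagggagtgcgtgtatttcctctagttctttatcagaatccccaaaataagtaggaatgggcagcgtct
Clec14a: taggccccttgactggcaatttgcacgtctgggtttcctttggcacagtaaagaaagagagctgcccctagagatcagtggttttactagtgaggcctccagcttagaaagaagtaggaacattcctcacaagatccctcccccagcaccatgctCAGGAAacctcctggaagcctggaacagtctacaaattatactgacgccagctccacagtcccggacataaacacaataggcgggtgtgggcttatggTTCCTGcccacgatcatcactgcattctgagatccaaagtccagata
Myct1: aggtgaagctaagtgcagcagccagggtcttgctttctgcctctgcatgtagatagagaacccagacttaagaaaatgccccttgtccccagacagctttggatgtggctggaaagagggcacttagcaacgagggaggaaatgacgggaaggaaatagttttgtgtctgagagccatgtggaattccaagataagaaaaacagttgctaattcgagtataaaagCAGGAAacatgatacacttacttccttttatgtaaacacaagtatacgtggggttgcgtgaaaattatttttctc
Erg: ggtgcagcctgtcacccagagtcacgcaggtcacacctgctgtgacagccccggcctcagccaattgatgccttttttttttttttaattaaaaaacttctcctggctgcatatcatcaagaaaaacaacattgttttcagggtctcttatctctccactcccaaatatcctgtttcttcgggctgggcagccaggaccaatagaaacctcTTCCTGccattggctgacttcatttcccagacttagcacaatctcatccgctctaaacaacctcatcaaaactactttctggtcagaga

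The match of Myct1 begins 25 bases before the transcript start, that of Erg 39 bases and the nearer one of Emcn 67 bases before it. CAGGAA, searched on both strands, lay in 14 of the 22 promoters (63.6%), those of 13 of the 16 genes, and in 30.6% of the 32817 RefSeq promoters of the same length. A related ETS-type string, CCGGAA, also searched on both strands, lay in 0 of these 22 and in 14.9% of all promoters. The second string differs from the first in 1 letter, so both cannot lie on the same 6 bases of a strand. Further strings were searched on both strands, and each lay in 3 of the 22 promoters (13.6%). AACAAT, which resembles the site of SOX factors, lay in 10.7% of all promoters. The figure for AGATAA, which resembles the site of GATA factors, was 11.2%, and that for TATAAA, the letters of the TATA box, was 13.6%. Genes outside the separated set also hold CAGGAA, among them Tie1, Robo4, Cd34 and Egfl7, and Tal1, which was separated, has none in its 2 listed promoters. A match of letters is a description of the window and no measure of binding.

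The transcription factors of the list lay higher in 5 of 5 genes. Erg (chr16:95359169-95586593), an ETS factor that maintains endothelial identity, measured 9.79, 13.0 and 8.85 CPM in the agonist libraries, against 6.94, 5.22 and 6.61 CPM without agonist. The groups do not overlap, and the difference did not pass the adjusted test (log2 fold change 0.75 ± 0.31 SE, adjusted p = 0.527 by edgeR). Tal1 (chr4:115056426-115071755), a helix-loop-helix factor of blood and vessel precursors, measured 4.33, 3.33 and 3.77 CPM with the agonist, against 1.96, 2.09 and 2.57 CPM without it. Its groups are separated too, at levels near the low end of the list (24 to 54 counts per library). Its log2 fold change was 0.79 ± 0.37 (SE), with a 95% interval of -0.07 to 1.64. The ETS factor Fli1 measured 5.70, 10.3 and 7.85 CPM against 6.34, 2.61 and 5.88 CPM without agonist, so agonist library 1 lay among the others. The SOX F factor Sox7, which acts in early endothelium, measured 104, 46.3 and 83.3 CPM with the agonist and 66.8, 43.6 and 49.9 CPM without it. Agonist library 2, the library highest for most of the list, was the lowest of its group here. Its relative Sox18, a factor of vessel and lymphatic formation, measured 24.9, 31.8 and 10.4 CPM against 15.7, 22.2 and 18.6 CPM without agonist, with agonist library 3 lowest of all 6.

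Junction and adhesion genes lay higher in 5 of 6. Cdh5 (VE-cadherin, chr8:104101625-104144511), the cadherin of endothelial adherens junctions, measured 48.6, 88.4 and 43.5 CPM with the agonist, against 40.001, 36.5 and 24.3 CPM without it (log2 fold change 0.84 ± 0.32 SE, edgeR adjusted p = 0.5002). Esam (chr9:37528078-37538319), an immunoglobulin-type molecule of endothelial tight junctions, measured 65.5, 91.3 and 58.9 CPM with the agonist, against 52.8, 44.6 and 29.2 CPM without it (log2 fold change 0.77 ± 0.28 SE, edgeR adjusted p = 0.465). For both genes all agonist libraries were above all others, with agonist library 2 highest and no-agonist library 3 lowest. Pecam1, the adhesion molecule CD31 of endothelium, platelets and leukocytes, measured 148, 118 and 100.3 CPM with the agonist and 107, 65.2 and 72.0 CPM without it. No-agonist library 1 lay above agonist library 3, so the groups overlap (log2 fold change 0.58 ± 0.26 SE, 95% interval -0.01 to 1.18). Cldn5, the claudin of endothelial tight junctions, measured 116, 119 and 68.8 CPM against 64.6, 33.2 and 99.4 CPM without agonist. Rasip1, a Ras-interacting protein needed for vessel lumens, measured 24.9, 25.7 and 13.2 CPM against 17.2, 15.8 and 9.92 CPM without agonist.

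Icam2, an adhesion molecule at endothelial junctions that binds leukocyte integrins, had a lower mean with the agonist. It measured 17.01, 22.6 and 12.0 CPM with the agonist and 21.5, 26.4 and 20.6 CPM without it. Agonist library 2 overlaps the others, and the log2 fold change of -0.41 ± 0.28 (SE) had a 95% interval of -1.07 to 0.26. As a share of the summed counts of the 34 genes, Icam2 took 1.1199, 1.257 and 1.111% in the agonist libraries, against 1.754, 2.624 and 2.207% without agonist. It was the 1 gene of the 34 whose share did not overlap between the groups, a comparison made with the values in view and not tested. In CPM, 14.5% of all tested genes did not overlap in either direction, a larger part than 1 of 34. The summed level of the 34 genes had a higher mean with the agonist (1466 against 1054 CPM), which lowers the share of a gene that stayed flat.

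The sialomucins and the diaphragm protein lay higher in 4 of 4. Emcn (endomucin, chr3:137341067-137432185), a sialomucin of venous and capillary endothelium, had the smallest adjusted p of the list, 0.410 by edgeR, which did not pass the threshold. It measured 28.3, 58.2 and 45.9 CPM with the agonist, against 24.2, 23.4 and 26.4 CPM without it. The groups do not overlap, and the libraries without agonist lie close together while those with it are spread wider (log2 fold change 0.84 ± 0.28 SE, 95% interval 0.20 to 1.48). Cd34, a sialomucin of endothelium, blood progenitors and some stromal cells, measured 116, 284 and 117 CPM with the agonist and 122, 144 and 100.8 CPM without it. Agonist library 2 alone lay above the range of the other group, and without it the log2 fold change was -0.07 in place of 0.50. Podxl, a sialomucin also made by podocytes and some epithelia, measured 79.8, 105 and 52.4 CPM against 90.1, 60.6 and 33.2 CPM without agonist. Plvap, which builds the diaphragms of fenestrae and caveolae, measured 83.5, 47.9 and 17.5 CPM against 54.4, 45.6 and 39.3 CPM without agonist. The agonist libraries of Plvap included the highest and the lowest of the 6 (log2 fold change 0.10 ± 0.48 SE).

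Of the vessel matrix genes and their lectin-like receptors 5 of 5 lay higher. CD93 and CLEC14A are related membrane proteins that both bind multimerin 2, the endothelial matrix protein encoded by Mmrn2. Clec14a (chr12:58264720-58269290) measured 27.9, 51.1 and 30.01 CPM with the agonist, against 17.1, 26.02 and 19.4 CPM without it, and was separated (log2 fold change 0.80 ± 0.30 SE, edgeR adjusted p = 0.483). Cd93 measured 46.9, 92.7 and 44.6 CPM against 45.7, 36.0 and 22.1 CPM without agonist, and Mmrn2 measured 41.4, 37.7 and 21.9 CPM against 26.04, 17.2 and 18.6 CPM without agonist. In each of these genes the overlap came from agonist library 3 lying under no-agonist library 1. Vwf, the clotting factor stored in endothelial cells and platelets, measured 100.0, 15.6 and 24.3 CPM with the agonist and 24.98, 34.2 and 27.4 CPM without it. One library made its higher mean: without agonist library 1 the log2 fold change of 0.69 ± 0.63 (SE) became -0.52. The summed level of platelet and megakaryocyte markers, cells that also hold Vwf, was 50.5, 69.7 and 47.6 CPM with the agonist and 57.6, 58.3 and 82.2 CPM without it, with Gp1ba listed at 0. Most of each sum was Itgb3, and 3 of the 8 markers were tested. Itgb3 measured 31.5, 63.2 and 34.4 CPM against 47.3, 50.1 and 64.2 CPM without agonist. Itga2b measured 12.8, 4.96 and 8.16 CPM against 6.42, 4.96 and 13.3 CPM, and Pf4 4.49, 1.29 and 4.92 CPM against 2.42, 2.18 and 3.40 CPM. The part of platelets in the Vwf values was not tested.

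Egfl7, a secreted protein of vessel formation, measured 61.8, 61.5 and 41.9 CPM with the agonist and 34.3, 48.2 and 37.1 CPM without it, with agonist library 3 among the others. Its locus on chromosome 2 also gives rise to miR-126a, the endothelial microRNA, whose mature 3p strand is shown because this gene hosts it (RefSeq, GRCm38.p6, chr2:26591402-26591423, plus strand), with the seed, bases 2 to 8, in capitals.
mmu-miR-126a-3p: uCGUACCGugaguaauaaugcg
The row Mir126 of the table held 4, 2 and 9 counts in the agonist libraries and 4, 9 and 3 counts without agonist, too few to be tested. In the GENCODE M21 annotation the miRNA lies within exon sequence of Egfl7, so reads there may be shared between these rows.

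Among receptors and signalling genes 6 of 9 lay higher. Myct1 (chr10:5593775-5606904), an endothelium-enriched gene, was separated, with 12.9, 17.8 and 12.1 CPM with the agonist against 8.91, 8.79 and 6.70 CPM without it (log2 fold change 0.81 ± 0.29 SE, edgeR adjusted p = 0.471). Robo4, the endothelial roundabout receptor that stabilises vessels, measured 22.5, 28.8 and 18.5 CPM against 20.5, 14.01 and 8.63 CPM without agonist. Tie1, the orphan partner of the angiopoietin receptor, measured 59.5, 58.7 and 26.9 CPM against 37.2, 40.7 and 29.0 CPM without agonist. For Tie1 agonist library 3 was the lowest of all 6, while for Robo4 it lay under no-agonist library 1 alone. Endoglin, Eng, a coreceptor for BMP9 and TGF-beta, measured 85.0, 144 and 75.2 CPM against 127, 72.3 and 64.9 CPM without agonist. The sphingosine 1-phosphate receptor S1pr1 measured 21.8, 26.1 and 17.6 CPM against 25.5, 14.8 and 13.4 CPM without agonist. Both overlapped, with log2 fold changes of 0.20 ± 0.35 for Eng and 0.29 ± 0.31 (SE) for S1pr1.

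Calcrl and Ramp2 encode the receptor and the accessory protein that together bind adrenomedullin, a peptide that keeps vessels and lymphatics tight. Calcrl measured 13.2, 13.0 and 19.5 CPM with the agonist and 11.4, 7.22 and 18.002 CPM without it. Ramp2 measured 60.3, 58.5 and 41.3 CPM with the agonist and 81.7, 52.6 and 35.1 CPM without it. Neither differed beyond its error (log2 fold change 0.32 ± 0.38 for Calcrl and -0.08 ± 0.32 SE for Ramp2), and in GENCODE M21 Ramp2 shares 1103 exon bases with Vps25 on the same strand, so its reads are uncertain. The endothelial nitric oxide synthase Nos3 measured 16.7, 12.2 and 5.54 CPM against 24.9, 10.4 and 5.79 CPM without agonist. Its exons overlap the antisense gene Gm15587 and Atg9b on the other strand, and how strand was treated in the counting is not known here. Eng, Cd34, Rasip1, Egfl7, Ecscr and Prox1 also share exon bases with another annotated gene, and their reads are uncertain to that extent. The chemotaxis and apoptosis regulator Ecscr measured 23.4, 27.2 and 18.4 CPM against 17.4, 16.8 and 51.4 CPM without agonist. The high value of no-agonist library 3 set its direction: without that library the log2 fold change was 0.43 in place of -0.31.

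The apelin pathway gave the largest fitted changes of the list. Apelin, encoded by Apln, is the peptide ligand of the receptor encoded by Aplnr, and both are made in growing vessels. Aplnr (chr2:85136225-85139923) measured 21.7, 66.4 and 18.5 CPM with the agonist, against 10.3, 16.2 and 8.54 CPM without it. All agonist libraries lay above all others, and agonist library 2 lay far above the other libraries of its own group (log2 fold change 1.61 ± 0.53 SE, 95% interval 0.38 to 2.84, edgeR adjusted p = 0.412). Without that library the log2 fold change was 0.78 (edgeR adjusted p = 0.614), and over the alternatives the adjusted p ranged from 0.0891 (DESeq2) to 0.709 (no-agonist library 3 left out). Apln measured 0.802, 7.47 and 2.69 CPM against 2.04, 1.22 and 0.827 CPM without agonist, so agonist library 1 was lowest of the 6, and without agonist library 2 its log2 fold change was 0.35 in place of 1.42. Esm1, a proteoglycan secreted by tip cells, the leading cells of vessel sprouts, measured 2.57, 11.9 and 7.85 CPM against 2.72, 12.1 and 0.0918 CPM without agonist. No-agonist library 3 held 1 count of it, and the interval of its log2 fold change ran from -2.08 to 3.24.

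Of the lymphatic genes 1 of 2 had a higher mean with the agonist. Lyve1, a hyaluronan receptor of lymphatic endothelium and of some macrophages, measured 15.6, 3.74 and 7.54 CPM with the agonist and 14.1, 4.00 and 19.4 CPM without it. Prox1, the transcription factor that specifies lymphatic endothelium, measured 8.34, 0.951 and 2.31 CPM with the agonist and 2.42, 0.957 and 7.07 CPM without it. In both genes agonist library 1 and no-agonist library 3 were high and the second library of each group was low, and the log2 fold changes of -0.48 ± 0.67 and 0.15 ± 0.92 (SE) were smaller than their errors. Smooth muscle markers were highest in the same libraries, with summed levels of 11384, 2829.9 and 3519 CPM in the agonist libraries and 7722, 7399 and 18879 CPM without agonist. Their part in the lymphatic values was not tested. Of 6 tested further lymphatic genes, such as podoplanin (Pdpn, log2 fold change 0.54 ± 0.47 SE) and reelin (Reln, -0.28 ± 0.62 SE), 1 lay higher and 5 lower, with a median of -0.12.

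**Figure D2:**
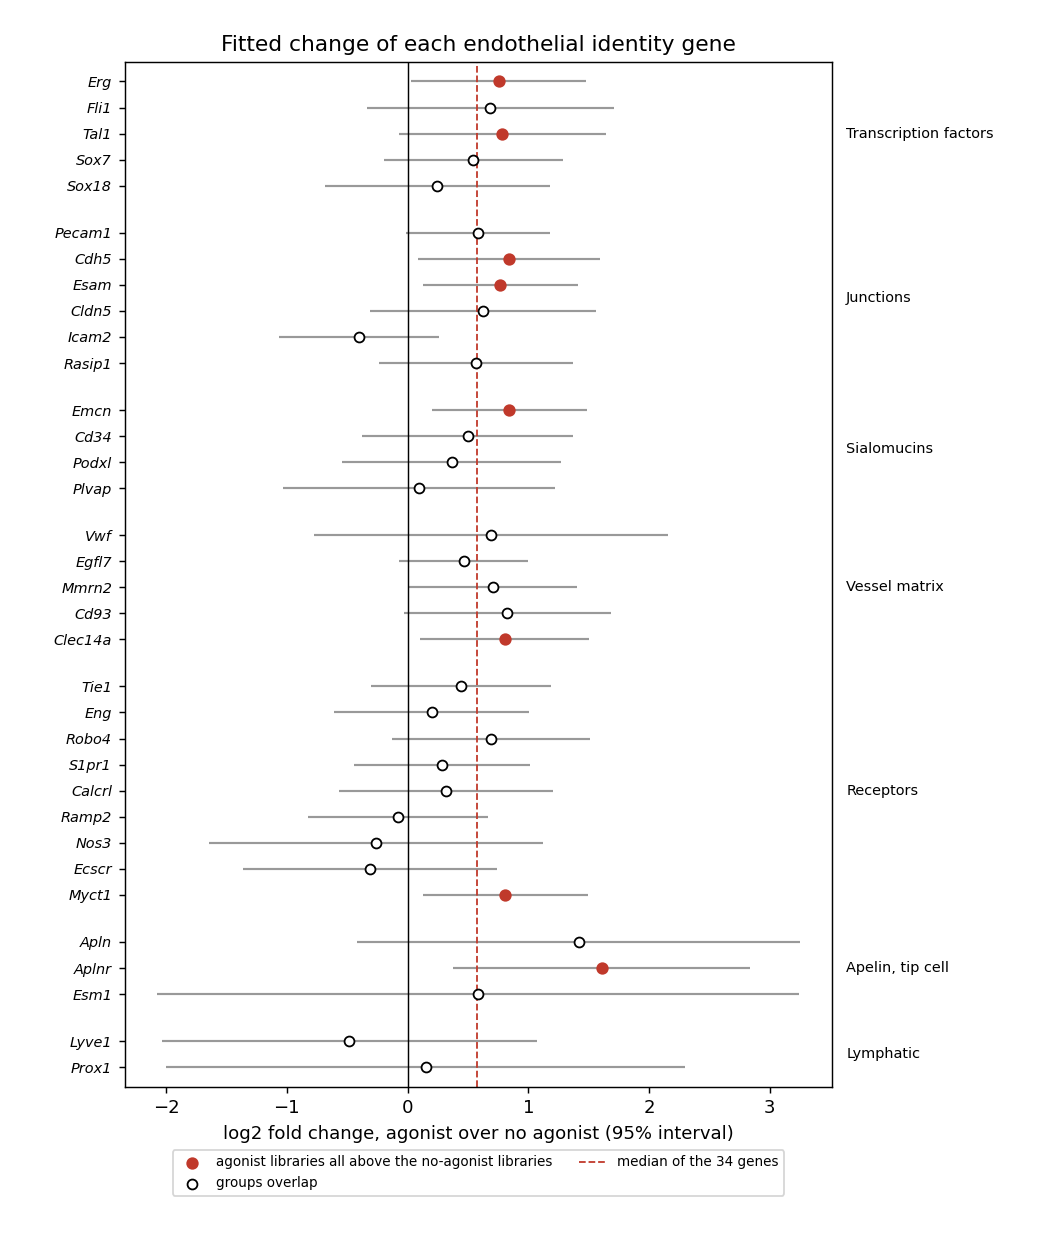
Fitted log2 fold change of each of the 34 genes, agonist over no agonist, with its 95% interval, grouped by role. Red points are the 8 genes whose agonist libraries all lay above the others, the dashed line is the median of 0.58, and 26 of the 34 intervals span 0.

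The order of levels within the list was compared per kilobase of exon in GENCODE M21, which held all 34 symbols. Cldn5 was highest, with 71.5 ± 19.9 CPM per kilobase in the agonist libraries and 46.4 ± 23.4 without agonist (SD, n = 3 each). Plvap, Eng, Cd34, Esam and Sox7 followed with means over all 6 libraries of 19.9 to 24.2 CPM per kilobase, which do not differ beyond their spread. The transcription factors Erg, Fli1, Tal1 and Prox1 lay at the low end with 0.438 to 2.43 CPM per kilobase, and Prox1 was lowest. The expression of Pecam1 and Cdh5 at 16.3 and 11.2 CPM per kilobase places these defining endothelial markers in the upper part of the list, and both were detected in every library.

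The 34 genes did not vary as 1 block across the libraries. Their summed level was 1519, 1799 and 1081 CPM with the agonist and 1227, 1005 and 932 CPM without it. The means were 1466 ± 362 CPM with the agonist and 1054 ± 153 CPM without it (SD, n = 3 each), and agonist library 3 lay under no-agonist library 1. Agonist library 2 held the highest value for 18 of the 34 genes (52.9%), where it was highest for 17.6% of all tested genes. Agonist library 1 was highest for 9, and agonist library 3 for 1. At the low end, no-agonist library 3 was lowest for 13 of the 34 (38.2%), where it was lowest for 23.4% of all tested genes.

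**Figure D3:**
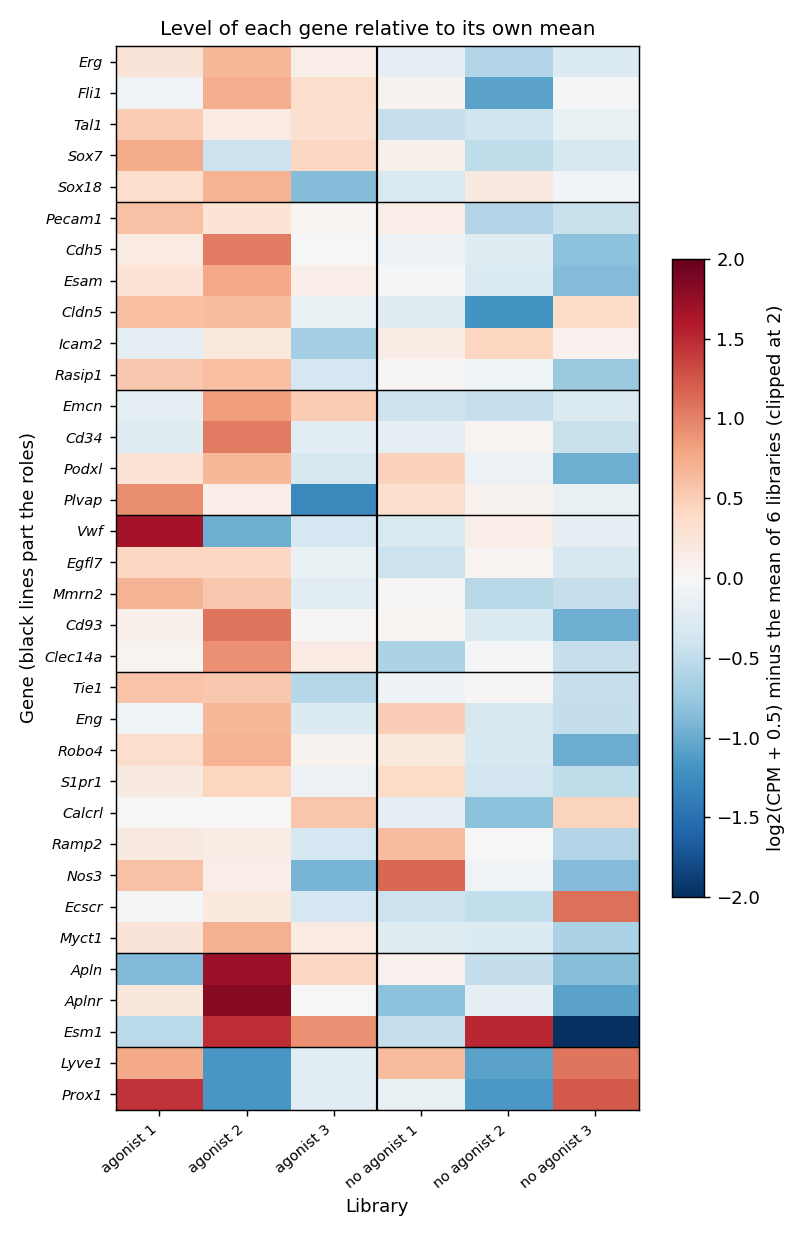
Level of each gene in each library on a log2 scale relative to the gene's own mean over 6 libraries, with agonist libraries left of the black line. Agonist library 2 is highest for 18 of the 34 genes, Vwf is high in agonist library 1 alone, and Prox1 is high in agonist library 1 and no-agonist library 3.

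Other endothelial genes, chosen with earlier results known, lay higher in 24 of 29 tested (median log2 fold change 0.38), with 0 past the adjusted threshold. Tek, Kdr and Flt1 also stand in the VEGF and angiopoietin list, Sox17 in the arterial, Ptprb in the partner and Stab1 in the further lymphatic list. The counts of these lists are therefore not independent. The protein C receptor Procr measured 28.8 ± 9.63 CPM with the agonist and 12.4 ± 2.67 CPM without it (SD, n = 3 each, edgeR adjusted p = 0.329). Klf4, a flow-responsive factor of endothelium that epithelia also make, measured 221 ± 36.1 CPM with the agonist and 416 ± 119 CPM without it (edgeR adjusted p = 0.364). Of the VEGF and angiopoietin genes 10 of 14 lay higher (median log2 fold change 0.22). Angptl4, a lipase inhibitor that responds to hypoxia and fatty acids, measured 33.4 ± 7.16 CPM with the agonist and 58.6 ± 29.3 CPM without it (log2 fold change -0.81 ± 0.38 SE, edgeR adjusted p = 0.570). The ligand Vegfb measured 29.1 ± 2.73 CPM with the agonist and 23.97 ± 3.47 CPM without it (log2 fold change 0.28 ± 0.21 SE, edgeR adjusted p = 0.740). The main VEGF receptor Kdr had a log2 fold change of 0.20 ± 0.21 and Flt1 one of 0.05 ± 0.28 (SE), both picked out after their values were seen.

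Arterial genes lay higher in 9 of 12 (median log2 fold change 0.27). Sox17, which uterine epithelium also makes, measured 181 ± 42.0 CPM with the agonist and 102 ± 22.4 CPM without it, and the netrin receptor Unc5b measured 12.7 ± 3.22 CPM with the agonist and 24.96 ± 7.56 CPM without it. Venous genes lay higher in 4 of 7 tested (median 0.30), with the interleukin-1 receptor Il1r1, not specific to veins, at 132 ± 118 CPM with the agonist and 26.2 ± 13.7 CPM without it. The Duffy chemokine receptor of venules, listed as Darc, measured 6.37 ± 1.32 CPM with the agonist and 3.50 ± 0.889 CPM without it. Capillary genes lay higher in 8 of 8 tested (median 0.22), with Kit, a receptor that mast cells also carry, at 34.2 ± 20.4 CPM with the agonist and 9.31 ± 7.95 CPM without it. Of the 8, 0 were separated. Cd300lg, Aqp1, Cd36 and Sparcl1, named after their values were seen, had log2 fold changes of 0.006 to 0.16, each smaller than its SE. Rgcc, a cell cycle regulator of capillary endothelium, measured 6.71 ± 1.91 CPM with the agonist and 3.93 ± 2.04 CPM without it. Pericyte genes lay higher in 4 of 10 (median -0.07), and their examples Kcnj8 and Mcam had log2 fold changes of -0.41 ± 0.29 and -0.54 ± 0.42 (SE). The adjusted test passed 0 genes in these lists.

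Ligands and partners of the listed receptors lay higher in 5 of 13 tested (median log2 fold change -0.19), with 0 past the adjusted threshold. Sphk1, a kinase that makes sphingosine 1-phosphate, measured 29.0 ± 7.54 CPM with the agonist and 58.4 ± 15.3 CPM without it (edgeR adjusted p = 0.337). Ptprb, the vascular phosphatase VE-PTP that binds Tie2 and VE-cadherin, measured 53.8 ± 12.6 CPM with the agonist and 31.3 ± 7.46 CPM without it (edgeR adjusted p = 0.406). Ramp3, the other accessory protein of the adrenomedullin receptor, varied far more than Ramp2. It was at 6.50, 174 and 105 CPM with the agonist and 209.8, 141 and 13.8 CPM without it, and was picked out after its values were seen. The BMP ligands Gdf2 and Bmp10 of endoglin were listed at 0 in all libraries.

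Markers of other cells, none of which passed the adjusted threshold, are given beside these results. Epithelial markers lay lower in 9 of 9, with summed levels of 4020 to 5512 CPM with the agonist and 6739 to 11730 CPM without it. Most of each epithelial sum was Krt7, Krt8 and Krt19. Of the 9 markers 3 were lower in all agonist libraries, while the others overlapped, such as Epcam and Krt18 (log2 fold changes -0.29 ± 0.30 and -0.14 ± 0.28 SE). Smooth muscle markers lay lower in 8 of 8, and macrophage markers in 8 of 9, with sums of 355 to 784 CPM with the agonist and 794 to 2284 CPM without it. Most of each macrophage sum was Cd14, at 595, 517 and 195 CPM with the agonist and 806, 702 and 2002 CPM without it. Cd68 was also lower in all agonist libraries, while the other tested macrophage markers overlapped between the groups. Among these, Csf1r measured 29.4, 23.0 and 23.8 CPM against 59.9, 7.83 and 29.6 CPM without agonist. Leukocyte and lymphocyte markers lay higher in 7 of 7 tested, with sums of 34.3 to 49.9 CPM with the agonist and 13.1 to 27.6 CPM without it. Stromal markers lay higher in 5 of 9, at 4384 to 5589 CPM with the agonist and 4424 to 7047 CPM without it.

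Proliferation genes lay higher in 8 of 8, with summed levels of 385, 861 and 175 CPM with the agonist and 195, 361 and 92.8 CPM without it. Their highest library is agonist library 2 and their lowest no-agonist library 3, as for the summed level of the 34 genes. Cyclin B1, Ccnb1, measured 13.6 ± 9.25 CPM with the agonist and 4.62 ± 3.59 CPM without it, and Mki67 81.3 ± 45.4 CPM with it and 35.5 ± 27.6 CPM without it. The part of these markers in the endothelial values was not tested.

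**Figure D4:**
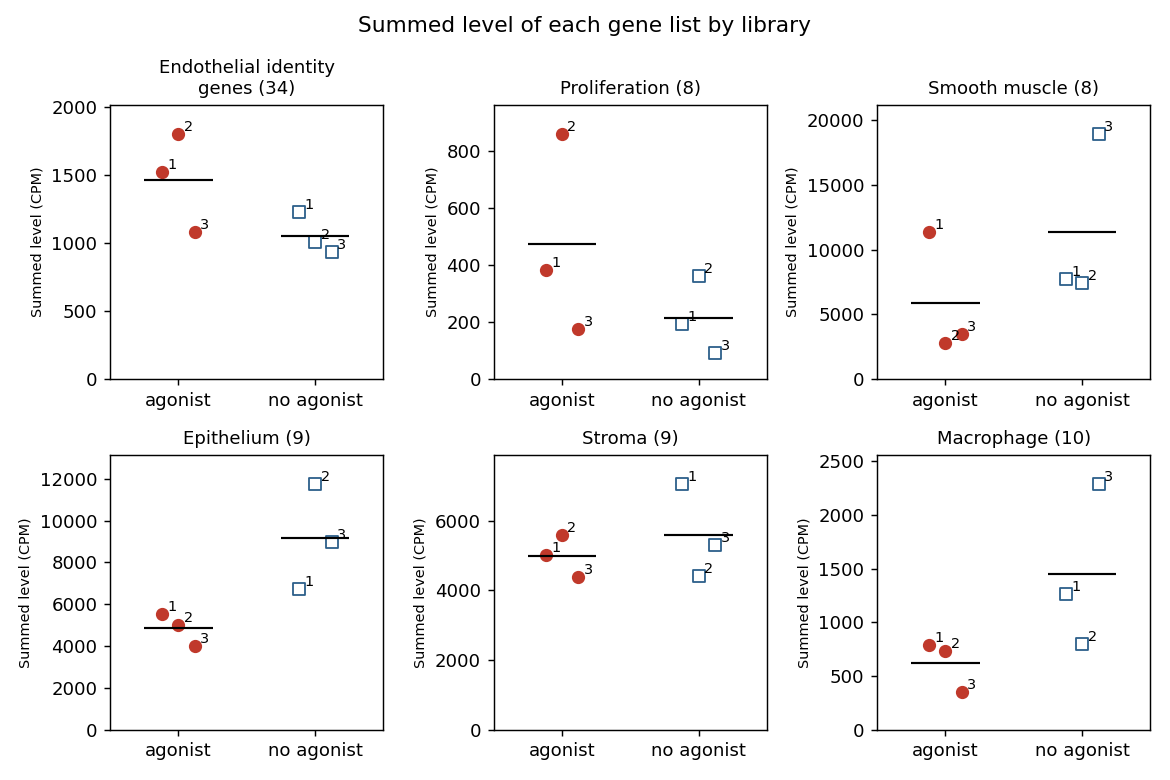
Summed level in CPM of the 34 endothelial identity genes and of 5 marker lists in each library, numbered by replicate, with the group mean as a line. The endothelial sum and the proliferation sum peak in agonist library 2. The epithelial sums of the agonist libraries (4020 to 5512 CPM) lie below all others, and most of each epithelial sum is Krt7, Krt8 and Krt19.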

How the data were processed

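RNA of scraped endometrium was measured in 6 libraries, per the labels' protocols from an Ion Total RNA-Seq library kit, with single-end reads of an Ion Proton. The values are the authors' deposited read counts per gene symbol, whole numbers with no normalization recorded. They were counted with HTSeq 0.6.1 on mm10 (GRCm38), per the submitters' processing notes. For the aligner, the annotation and the strand setting the entry is: not given in the sources used here.

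Totals were 11720958 to 14104266 counts, and the floor of 3 counts covers counting error only. The software was edgeR 4.0.16, DESeq2 1.42.0 and limma 3.58.1 under R 4.3.3. Genes passing filterByExpr (16581) were scaled by TMM and tested with edgeR's quasi-likelihood F-test, agonist against no agonist, without covariates, with Benjamini-Hochberg adjustment over all of them and a threshold of 0.05. Standard errors are the log2 fold change divided by the square root of F, and 95% intervals use the t distribution of the fit, so they include the spread between libraries. The test was first tried on simulated counts. With the spread between libraries seen here it recovered 0 of 100 2-fold and 44 of 100 4-fold changes, with 3 false calls. With a low spread it recovered 87 and 97 of 100, also with 3 false calls. An adjusted p above 0.05 therefore says little about changes of 2-fold or less. Levels are TMM-scaled CPM. Exon lengths and coordinates are from GENCODE M21 (GRCm38), and sequences are from RefSeq (GRCm38.p6). Older symbols were matched through RefSeq synonyms.

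The members and lists were chosen with earlier results of these data known. All 34 members are named, with the 2 genes of smallest p of each further endothelial, pericyte and partner list, fewer or none for the lists of other cell types, and a few named as chosen later. The alternatives were other scaling factors, filters and tests, and each library left out in turn. Leaving out both 18S-rich libraries was added after the data were seen.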

Additional observations from a re-analysis of the deposited data

How the results depend on the processing

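No paired analysis was possible because the labels share no replicate numbers between the groups. Of the 34 genes, 0 passed the adjusted threshold under any of the 16 alternatives, and 25 kept their direction under all of them. Over all genes, the number called was 0 in the edgeR quasi-likelihood test, but 36 without the filter on low counts (8 higher, 28 lower), 394 with DESeq2 (141 and 253), 268 with edgeR's likelihood ratio test (104 and 164), 7 without both 18S-rich libraries, and 0 to 1 with each library left out. The number of the 34 genes at an unadjusted p under 0.05 was 8, and 1 to 13 with each library left out, where leaving out agonist library 2 gave 1 (8.21% of all tested genes), no-agonist library 3 gave 2 (7.04%) and agonist library 3 gave 13 (6.24%). It was 5 without both 18S-rich libraries, 4 higher and 1 lower (Lyve1), where 11.3% of all tested genes had such a p. The number of separated genes was 8 of 34, where 14.5% of all tested genes were separated in either direction, and 9 to 17 with each library left out. It was 17 without agonist library 3 (20.4% of all tested genes) and 14 without no-agonist library 1 (25.8%). Without agonist library 1 it was 11, 10 higher and 1 lower (29.2%). Without agonist library 2 it was 10, 9 higher and 1 lower (26.2%). It was 9 without no-agonist library 2 (23.3%) and 11 without no-agonist library 3 (23.9%). It was 15 without both 18S-rich libraries (12 higher, 3 lower), where 41.8% of all tested genes were separated in either direction, since fewer libraries are compared. With library totals alone the median of all genes moved to 0.18 and that of the 34 genes to 0.72, against 0.02 and 0.58 with TMM, and 68.7% of all tested genes lay higher, against 52.2%.

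Directions turned in 9 genes, for which the cause was not tested. With each library left out in turn, the log2 fold change ranged from -0.10 to 0.59 for Sox18, -0.066 to 0.73 for Cd34, -0.49 to 0.50 for Plvap, -0.52 to 1.11 for Vwf and -0.14 to 0.56 for Eng. It ranged from -0.33 to 0.28 for Ramp2, -0.62 to 0.50 for Nos3, -0.57 to 0.43 for Ecscr and -1.08 to 1.18 for Prox1. Plvap was at -0.16 with limma-voom, Ramp2 at 0.053 with library totals alone, and Plvap, Vwf and Prox1 at -0.51, -0.38 and -1.53 without both 18S-rich libraries. Precision is limited by 3 libraries a group, and for genes of few counts also by depth. Esm1 and Prox1 spread widely between libraries, with 1 to 175 and 11 to 104 counts and SEs of 1.14 and 0.92. Tal1, at 24 to 54 counts, had an SE of 0.37.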

Other observations

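Fat cell markers lay higher in 6 of 6, with summed levels of 496, 19.9 and 337 CPM in the agonist libraries and 404, 16.7 and 146 CPM without agonist. Agonist library 2 and no-agonist library 2 held the lowest fat cell sums, and these libraries also held the lowest capillary sums (532 and 512 CPM). The fat and capillary lists share Fabp4. Most of each capillary sum was another gene, Sparcl1, at 919, 318 and 1165 CPM with the agonist and 963, 397 and 796 CPM without it. Red blood cell markers had summed levels of 347, 397 and 1884 CPM with the agonist and 676, 1048 and 121 CPM without it, with 5 of 6 tested higher and no gene past the adjusted threshold. Mesothelial markers lay higher in 5 of 7, with sums of 937 to 1124 CPM with the agonist and 1336 to 2782 CPM without it, set mainly by Krt19, which epithelium also makes.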
